A study of Mus musculus with 12 samples.

Results

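The interferon response genes described here are 35 genes of the 24421 in the deposited count table, chosen by gene symbol from a named list. The selection rule uses no measured value, but the list was drawn up with earlier results of these data known. All 35 symbols were found. They were followed in total RNA and in ribosome-protected fragments (RPF, the pieces of mRNA shielded by a translating ribosome) of B16 cells, a mouse melanoma line grown in DMEM with serum. Every culture had been transduced with a lentivirus. The shControl cultures expressed a non-relevant shRNA, and the shElp3 cultures expressed 1 shRNA against Elp3 (sh309), the catalytic subunit of the Elongator complex, which modifies wobble uridines of tRNAs. Each shRNA had 3 cultures, lettered A, B and C, and each culture gave 1 RNA and 1 RPF library, 12 in all. The labels name no interferon treatment in any group, and 1 shRNA sequence in 1 line is all that stands for Elp3 loss.

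Interferons are secreted proteins that warn cells of infection. Type I interferon binds a surface receptor whose kinases activate a complex of STAT proteins with Irf9, and this complex enters the nucleus and binds the interferon-stimulated response element (ISRE) of target promoters. Interferon gamma acts through a STAT dimer that binds the GAS element. In tumour cells, including melanoma, the same programme also controls antigen presentation, and some of its genes stay on at a low level without added interferon.

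Total counts were 7914369 to 16527864 in RNA and 7619269 to 10998570 in RPF. Elp3 itself stood at 93.9, 72.1 and 70.0 CPM (counts relative to library size, scaled by TMM within a fraction) in control RNA and at 41.3, 35.3 and 35.4 CPM in shElp3 RNA. Its footprints fell from 105 ± 11.4 to 55.0 ± 5.86 CPM (SD, n = 3). Letter A stood apart in 3 of the 4 groups: control RNA A correlated with B and C at Spearman 0.910 and 0.904 across genes, while B and C correlated at 0.993, and shElp3 RNA and control RPF showed the same order. In shElp3 RPF, A correlated with B and C at 0.992 and 0.982, and B with C at 0.987, so A was not apart there. Results are therefore also given for letters B and C alone. All 7 melanocyte markers were present, and their summed level was 8821 to 11767 CPM in control RNA and 5865 to 7399 CPM in shElp3 RNA, without overlap (14539 to 33941 and 11375 to 20252 CPM in RPF). Of 6 fibroblast markers 3 passed the filter, with Dcn at 0 in every library. Their sum was 64.7 to 81.4 CPM in control RPF and 83.4 to 110 CPM in shElp3 RPF, without overlap, and 24.0 to 58.2 and 46.1 to 94.3 CPM in RNA, with overlap. Of 10 leukocyte and macrophage markers 2 passed the count filter, Cd68 and Lyz2, and Ptprc and Adgre1 were at 0 in every RNA library. The summed leukocyte level was 7.70 to 22.6 CPM in control RNA and 6.31 to 12.1 in shElp3 RNA, and 23.7 to 77.3 in control RPF and 14.7 to 33.3 in shElp3 RPF. The part of these marker levels in the values below was not tested.

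Promoter sequences from RefSeq (build GRCm38.p6, 250 bases before to 50 after a start site) were found for 28 of the 35 members. Dhx58, Usp18, Mx1, Mx2, Parp9, Parp14 and Ifi27 had no entry. The ISRE core GAAANNGAAA, searched on both strands and counting overlapping matches, was present in 12 of the 28 genes (42.9%) and in 673 of 17224 genes of the table with a promoter entry (3.91%). The GAS motif TTCNNNGAA, which reads the same on both strands, was present in 7 of the 28 (25%) and in 1597 of the 17224 (9.27%). The windows below show how these letters sit in members whose levels are described further on. Each is read along the gene's own strand, with ISRE core matches in capitals and, for Ifi35, the GAS match. Matches on the opposite strand appear as TTTC pairs. Isg15 (chr4:156200855-156200916, minus strand) holds 3 overlapping ISRE cores, and Bst2 (chr8:71537567-71537622, minus) holds 2. Bst2 also holds a GAS match whose last 3 letters open its first core and so are in capitals, with its other letters left in lower case. Ifit1 (chr19:34640765-34640833, plus) holds 2 ISRE cores that do not overlap, and Gbp2 (chr3:142620584-142620633, plus) and Rsad2 (chr12:26456543-26456592, minus) hold 1 each. Ifi35 (chr11:101448409-101448437, plus) held no ISRE core and 1 GAS motif, beginning 7 bases after its start site.
Isg15: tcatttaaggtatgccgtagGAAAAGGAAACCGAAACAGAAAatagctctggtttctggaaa
Bst2: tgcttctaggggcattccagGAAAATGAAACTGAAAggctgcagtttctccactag
Ifit1: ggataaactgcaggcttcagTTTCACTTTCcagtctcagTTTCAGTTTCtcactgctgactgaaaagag
Gbp2: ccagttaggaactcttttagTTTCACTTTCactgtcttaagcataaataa
Rsad2: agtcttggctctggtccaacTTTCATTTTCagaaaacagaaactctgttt
Ifi35: agaagcagaaTTCACAGAAatgaaagtgg
Irf3 had neither motif in its window. A match is only a run of letters and says nothing of binding in these cells.

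The members took a small part of all reads. As a share of reads not scaled by TMM, it was larger in every shElp3 library than in any control library of the same fraction. In RPF they made up 0.0851, 0.0827 and 0.0953% of counted reads in control cultures A, B and C and 0.112, 0.112 and 0.113% in the shElp3 cultures. In RNA the ranges were 0.0578 to 0.0650% and 0.0677 to 0.0767%. Bst2 alone supplied 24.3 to 42.5% of the members' reads and Ifi27 7.67 to 16.5%. Without these genes the RPF shares were 0.0466 to 0.0581% in control and 0.0615 to 0.0646% in shElp3 libraries, which do not overlap, while the RNA ranges, 0.0321 to 0.0400% and 0.0389 to 0.0413%, do. These sums are a description and carry no test, and in bulk samples a change in the mix of cells and a change in RNA per cell cannot be told apart.

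**Figure D1:**
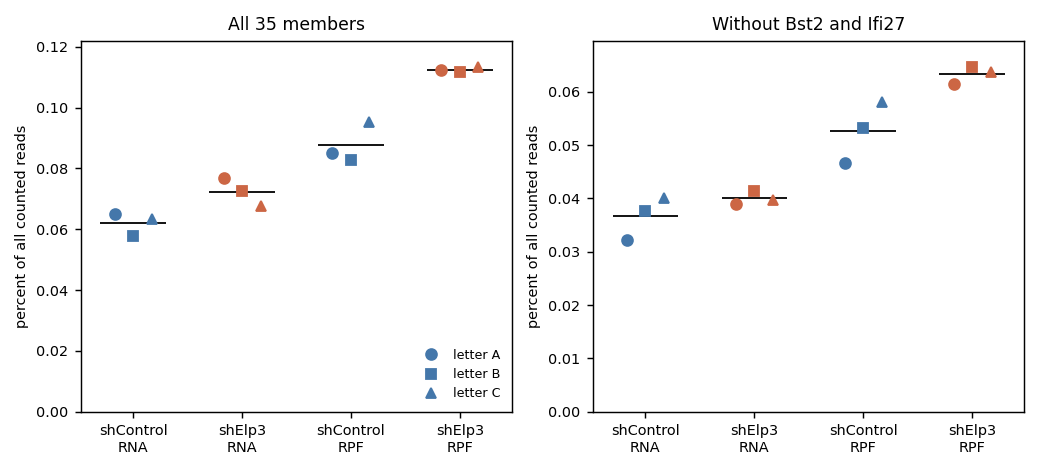
Reads assigned to the 35 members as a percent of all counted reads (y axis, from 0) for shControl (blue) and shElp3 (orange) libraries of total RNA and RPF, with letters as symbols and lines at the mean of 3; the right panel leaves out Bst2 and Ifi27. In the left panel the shElp3 RPF libraries lie at 0.112 to 0.113% and the control RPF libraries at 0.0827 to 0.0953%.

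Footprints gave 2 called members, both higher in shElp3 cultures: Ifi35 and Ifi27. Of the 35 members 29 passed the count filter in RPF (2 of them, Ifit3 and Gbp3, reached it in all libraries of the shElp3 group only), so that the counts over them describe those members and do not stand for all 35. The 2 of 29 (6.90%) stand beside 1.77% of all 11343 genes called higher, and 0 members were called lower beside 3.06% of all genes (edgeR quasi-likelihood test, Benjamini-Hochberg adjusted over all genes, threshold 0.05). DESeq2 called the same number in each direction, beside 4.65% of all genes called higher and 6.88% called lower by that tool. At an unadjusted edgeR p under 0.05 there were 7 of the 29 members, beside 23.1% of all genes. The median log2 change was 0.35 over the 29 members and -0.01 over all genes, and 20 of the 29 values were above 0. Within letters A, B and C the members' median difference was 0.46, 0.28 and 0.12, and that of all genes 0.02, 0.00 and -0.01. Of the 29 members 22, 20 and 17 were above 0 in these letters, beside 51.3, 50.2 and 48.4% of all genes. Letters did not consistently pair the RPF libraries (same-letter correlation of deviations from the group means 0.328, -0.107 and 0.215). Another matching of the libraries would give other differences. In 9 of the 29 (31.0%) every shElp3 library was above every control library, beside 15.4% of all genes, and in 0 was every one below, beside 15.3%. Those 9 were Irf2, Irf3, Irf9, Dhx58, Isg15, Ifit3, Gbp2, Ifi35 and Ifi27, and they include Ifit3, which reached the filter in full in the shElp3 group only.

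Ifi35, an interferon-inducible partner of the N-myc interactor protein, had footprint levels of 21.0, 20.4 and 24.0 CPM in control cultures A, B and C and 50.8, 45.8 and 37.3 CPM in shElp3 cultures. The lowest shElp3 library was well above the highest control. The level went from 21.8 ± 1.92 to 44.7 ± 6.83 CPM (SD, n = 3), a log2 change of 1.03 (SE 0.17) with an edgeR adjusted p of 0.025. With letters B and C alone it was 0.91 (SE 0.17, edgeR adjusted p 0.0031). In RNA, Ifi35 was at 37.1, 15.0 and 16.1 CPM in control and 50.6, 24.5 and 21.6 CPM in shElp3 cultures. Letter A was high in both groups, so the groups overlapped, although the shElp3 library exceeded its control within each letter. The RNA log2 change of 0.50 (SE 0.47) was not called (edgeR adjusted p 0.77), nor was it with the letter as a block (0.52, SE 0.19, edgeR adjusted p 0.083). With letters B and C alone it was called at 0.56 (SE 0.18, edgeR adjusted p 0.041).

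Ifi27, a small hydrophobic membrane protein and one of the classical interferon-induced genes, had 87.1, 94.6 and 110 CPM of footprints in control cultures and 164, 150 and 185 CPM in shElp3 cultures. Again the groups did not overlap. The level went from 97.3 ± 11.8 to 166 ± 17.7 CPM (SD, n = 3), a log2 change of 0.77 (SE 0.15, edgeR adjusted p 0.036). RNA of Ifi27 was at 64.3, 47.2 and 46.0 CPM in control and 113, 70.1 and 80.8 CPM in shElp3 cultures, also without overlap. The log2 change in RNA, 0.74 (SE 0.27), had an edgeR adjusted p of 0.30 without a block and, at 0.73 (SE 0.17), of 0.013 with the letter as a block. The gene overlaps Ifi27l2a in the annotation, and that neighbour had 10 reads in all 3 control RNA libraries together and 13 in the shElp3 ones.

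Both footprint calls rest on all 6 libraries but control A. Without control B, control C, or any 1 of the shElp3 libraries, 0 members were called (edgeR adjusted p 0.070 to 0.141 for Ifi35 and 0.078 to 0.154 for Ifi27), and 0 to 59 genes were called in the whole table. Without control A, 8 of 30 members (26.7%) were called higher, Irf3, Irf7, Dhx58, Ifit3, Bst2, Gbp2, Ifi35 and Ifi27, beside 10.7% of all 11530 genes, and 1 (3.33%) was called lower, Ifit2, beside 14%. Irf7 was tested there through the shElp3 libraries alone, being under the count cutoff in both remaining controls, so a difference was needed for it to be tested.
With letters B and C alone, 4 of 29 (13.8%) were called higher, Ifih1, Gbp2, Ifi35 and Ifi27, beside 9.41% of all genes, and 1 (3.45%) was called lower, Ifit2, beside 12.2%.

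**Figure D2:**
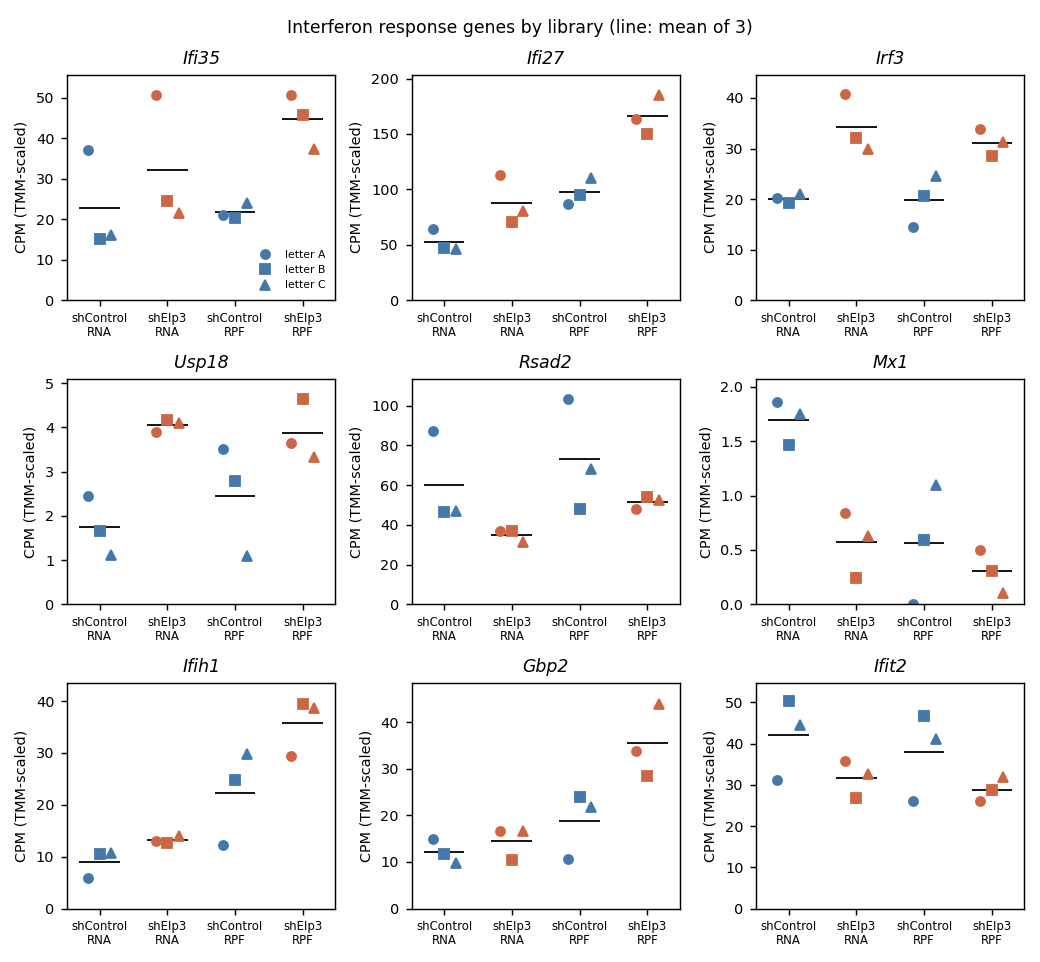
Level in each library (y axis, TMM-scaled CPM from 0, a separate scale per gene) of 9 members in shControl (blue) and shElp3 (orange) cultures, with letters as symbols and lines at the mean of 3. Ifi35 and Ifi27 footprints do not overlap between shRNAs, and control A is the highest of the 6 RNA libraries for Rsad2 and the lowest for Ifih1.

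In total RNA no member was called without a block: 0 of 32 higher, beside 0.22% of all 12274 genes, and 0 lower, beside 0.921%. At an unadjusted edgeR p under 0.05 there were 5 of the 32 members, beside 12.4% of all genes. DESeq2 called 1 higher, Irf3 (3.13%; DESeq2 adjusted p 0.038), beside 1.88% of all genes, and 0 lower, beside 3.43%. In RNA the letters separated A from B and C but not B from C, as described with the processing. With the letter as a block 5 of the 32 were called. Irf3, Usp18 and Ifi27 rose (9.38%, beside 5.46% of all genes), and Rsad2 and Mx1 fell (6.25%, beside 6.75%). With letters B and C alone, 4 of 31 (12.9%) were called higher, Irf3, Usp18, Ifi35 and Ifi27, beside 8.88% of all genes, and 2 (6.45%) were called lower, Ifit2 and Mx1, beside 10.5%. In RNA, then, the shares called are near the background in both directions. The filter was reached in every library of 1 group only by Mx1 (control) and Ifit1 (shElp3). All shElp3 libraries lay above all controls for 4 members (12.5%; Irf3, Ifih1, Usp18 and Ifi27), beside 10.2% of all genes, and below them for 2 (6.25%; Mx1 and Rsad2), beside 9.56%. The median log2 change was 0.14 over the 32 members and -0.02 over all genes.

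**Figure D3:**
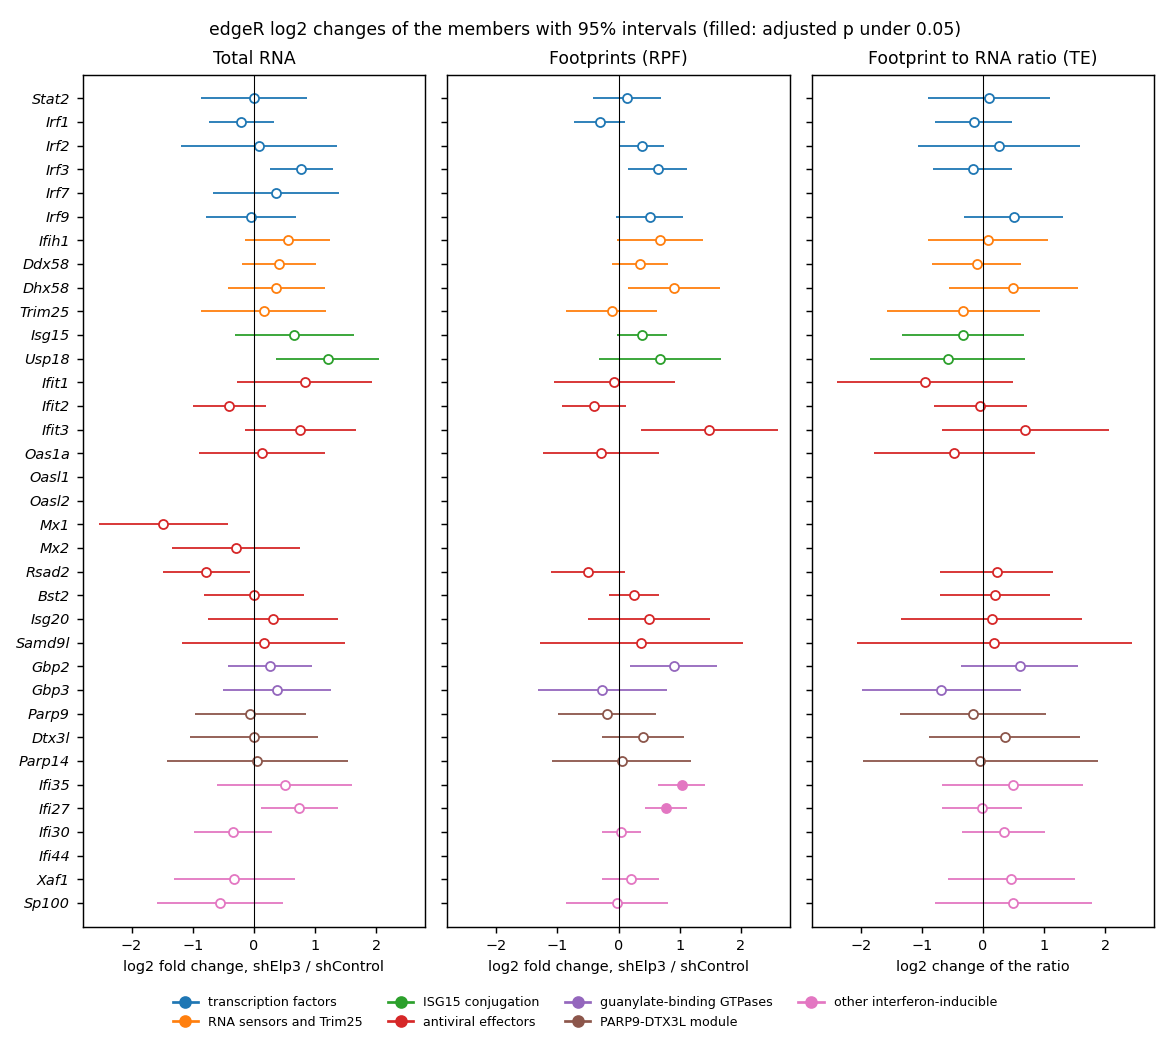
Log2 fold change of each member (x axis, shElp3 over shControl) in total RNA and RPF, and the log2 change of the footprint to RNA ratio, with 95% intervals from the edgeR fit without a block; colours mark roles, filled points an adjusted p under 0.05, and rows without a point were under the count filter. Only Ifi35 and Ifi27 in RPF are filled.

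Among the transcription factors, Irf3, which sensing pathways activate by phosphorylation to switch on interferon genes, had RNA levels of 20.1, 19.2 and 20.9 CPM in control cultures A, B and C and 40.8, 32.1 and 29.8 CPM in shElp3 cultures. Each shElp3 library was above each control. The mean went from 20.1 ± 0.89 to 34.2 ± 5.80 CPM (SD, n = 3), with a log2 change of 0.77 (SE 0.22, edgeR adjusted p 0.19) without a block and 0.76 (SE 0.19, edgeR adjusted p 0.019) with it. Irf3 footprints were at 14.6, 20.6 and 24.5 CPM in control and 33.8, 28.5 and 31.2 CPM in shElp3 cultures, again without overlap but not called (0.64, SE 0.21, edgeR adjusted p 0.12). Irf1, an early interferon gamma target, was at 39.5, 30.7 and 28.6 CPM in control RNA and 32.0, 26.0 and 27.7 CPM in shElp3 RNA. Its footprints were at 40.9, 43.5 and 31.6 CPM and 29.2, 36.6 and 28.0 CPM, so Irf1 did not share the upward values of Irf3. Irf2, a factor that can oppose Irf1 at shared sites, had 26.9, 34.7 and 34.5 CPM of footprints in control and 44.2, 39.1 and 42.4 CPM in shElp3 cultures. Its RNA was low in letter A of both groups (5.44 and 5.58 CPM) and 13.3 to 17.8 CPM in the other libraries. Irf9, the DNA-binding part of the type I interferon complex, had tightly grouped footprints of 3.41 ± 0.12 and 4.86 ± 0.10 CPM (SD, n = 3; log2 change 0.51, SE 0.23, edgeR adjusted p 0.24). Stat2, its partner, had log2 changes of -0.00 in RNA and 0.14 in RPF. Irf7, the amplifier of the type I response, failed the RPF filter with footprint counts of 0, 3 and 4 in control and 15, 13 and 9 in shElp3 libraries. Its RNA counts summed to 29 and 38, and in an RPF fit without the filter it was not called (log2 change 2.46, SE 0.81, edgeR adjusted p 0.11).

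The RNA sensors detect viral RNA in the cytosol. All 4 members of this group, Trim25 included, had RNA log2 changes above 0 (0.16 to 0.55), with 0 called in either fraction without a block. Ifih1 (MDA5) was at 5.81, 10.4 and 10.8 CPM in control RNA and 13.0, 12.6 and 14.0 CPM in shElp3 RNA, which do not overlap. Its footprints were at 12.2, 24.8 and 29.8 CPM and at 29.4, 39.4 and 38.6 CPM. Control A was the lowest library in both fractions, and shElp3 A fell just under control C in RPF. The footprint log2 change was 0.68 (SE 0.31, edgeR adjusted p 0.23) with all libraries and 0.51 (SE 0.15, edgeR adjusted p 0.036) with letters B and C alone. Ddx58 (RIG-I) was at 18.3, 24.4 and 29.4 CPM in control RNA and 26.3, 36.7 and 32.7 CPM in shElp3 RNA, and at 39.1, 48.8 and 55.2 CPM and 47.4, 69.2 and 66.0 CPM in RPF, with overlap in both. Dhx58 (LGP2), a regulator of the other two, had a footprint log2 change of 0.91 (SE 0.32, edgeR adjusted p 0.15). Trim25, a ubiquitin ligase that acts on RIG-I signalling, had 0.16 in RNA and -0.11 in RPF.

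Isg15 is a ubiquitin-like protein joined to other proteins during the response, and Usp18 is the protease that removes it and also dampens the type I receptor. Usp18 RNA was at 2.46, 1.65 and 1.11 CPM in control cultures and 3.90, 4.16 and 4.10 CPM in shElp3 cultures, from 12 to 65 reads a library. The shElp3 values lay close together and above all controls. Its log2 change was 1.21 (SE 0.36, edgeR adjusted p 0.21) without a block and 1.24 (SE 0.36, edgeR adjusted p 0.036) with it. Usp18 footprints were at 3.50, 2.78 and 1.09 CPM in control and 3.64, 4.64 and 3.33 CPM in shElp3 cultures, with overlap and no call (0.68, SE 0.43, edgeR adjusted p 0.39). Isg15 had 13.4, 11.6 and 12.1 CPM of footprints in control and 16.4, 14.3 and 17.8 CPM in shElp3 cultures, and its RNA was at 3.06, 3.30 and 7.19 CPM and at 5.22, 8.67 and 7.57 CPM. Both genes overlap a long noncoding RNA in the annotation, as do Irf2, Ifih1, Dhx58, Trim25, Gbp3 and Ifi30. Gbp2 overlaps a microRNA, and Stat2 and Ifit1 each overlap another protein-coding gene. Whether reads were counted by strand is not given in the sources used here.

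The antiviral effectors were split in direction. Rsad2 (viperin), a radical SAM enzyme that makes a chain-terminating nucleotide, was at 87.4, 46.5 and 46.7 CPM in control RNA and 36.9, 37.0 and 31.6 CPM in shElp3 RNA. Every shElp3 library was below every control, and control A was well above the rest. The log2 change was -0.78 (SE 0.30, edgeR adjusted p 0.35) without a block and -0.72 (SE 0.20, edgeR adjusted p 0.032) with it, and with letters B and C alone it was -0.45 (SE 0.16, edgeR adjusted p 0.059), which ends the call. Rsad2 footprints, at 104, 47.8 and 68.0 CPM in control and 48.1, 54.1 and 52.3 CPM in shElp3 cultures, overlapped (-0.50, SE 0.26, edgeR adjusted p 0.30). Mx1, a dynamin-like GTPase, had RNA counts of 25, 16 and 19 in control and 14, 2 and 8 in shElp3 libraries, or 1.86, 1.47 and 1.75 CPM and 0.84, 0.24 and 0.63 CPM. It passed the RNA filter through the control libraries alone, so a difference was needed for it to be tested. Its log2 change was -1.48 (SE 0.45, edgeR adjusted p 0.22) without a block and -1.53 (SE 0.45, edgeR adjusted p 0.039) with it. In RPF it had 18 reads in all control libraries and 8 in all shElp3 libraries, and its relative Mx2 had 30 and 13, both under the filter.

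Bst2 (tetherin), which holds budding virus at the cell surface, was at 341, 151 and 176 CPM in control RNA and 262, 224 and 183 CPM in shElp3 RNA. Its footprints were at 325, 203 and 262 CPM in control and 323, 309 and 307 CPM in shElp3 cultures. In RNA the controls spread widely around the shElp3 values. In RPF controls B and C lay under every shElp3 library, and control A lay just above them all. Neither log2 change (0.00 in RNA, 0.25 in RPF) was called with all libraries. Without control A the RPF change was called (0.42, SE 0.12, edgeR adjusted p 0.035). Ifit2, of the family that recognises foreign RNA ends, was at 31.1, 50.4 and 44.4 CPM in control RNA and 35.8, 26.7 and 32.7 CPM in shElp3 RNA. Its footprints were at 26.1, 46.8 and 41.2 CPM and at 26.0, 28.7 and 31.9 CPM. Control A differed from controls B and C, and with letters B and C alone Ifit2 fell in both fractions (-0.67, SE 0.17, edgeR adjusted p 0.0096 in RNA; -0.54, SE 0.15, edgeR adjusted p 0.023 in RPF). Its relative Ifit3 had values the other way, with footprint counts summing to 30 in control and 78 in shElp3 libraries (log2 change 1.48, SE 0.48, edgeR adjusted p 0.12). In RPF Ifit3 reached the count filter in all libraries of the shElp3 group only, with 2 reads in control A. Ifit1, Oas1a, Isg20 and Samd9l had log2 changes of 0.13 to 0.83 in RNA and -0.29 to 0.50 in RPF, none called. Samd9l differed by 1.97, -1.11 and 0.36 within letters A, B and C in RNA. Oasl2 had 9 reads in control and 7 in shElp3 RNA, and 15 and 5 in RPF. Oasl1 had 6 and 10 in RNA and 0 in every RPF library.

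Gbp2 and Gbp3 are GTPases that attack membranes around intracellular microbes. Gbp2 footprints were at 10.6, 24.0 and 21.9 CPM in control and 33.9, 28.5 and 44.0 CPM in shElp3 cultures, without overlap. The log2 change was 0.90 (SE 0.31, edgeR adjusted p 0.13) with all libraries and 0.66 (SE 0.20, edgeR adjusted p 0.040) with letters B and C alone. Gbp2 RNA overlapped, at 15.0, 11.6 and 9.87 CPM in control and 16.6, 10.5 and 16.6 CPM in shElp3 cultures. Gbp3 footprints were at 1.12, 1.89 and 2.73 CPM and at 1.38, 1.13 and 2.36 CPM, with overlap. The difference between the pair was not tested.

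Parp9 and Dtx3l form a ubiquitin ligase complex, and Parp14 is an ADP-ribosyltransferase encoded beside them. Their log2 changes were -0.06 to 0.06 in RNA and -0.19 to 0.39 in RPF, with 0 called. Parp14 RNA was at 2.24, 12.6 and 13.7 CPM in control and 5.82, 11.5 and 12.3 CPM in shElp3 cultures, low in letter A of both groups. Dtx3l RNA was at 4.10, 12.6 and 8.94 CPM and at 5.76, 8.91 and 10.9 CPM. Parp9 and Dtx3l overlap in the annotation and could share reads.

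Of the remaining interferon-inducible members, Ifi30 (the lysosomal thiol reductase GILT, used in antigen processing) was at 112, 90.2 and 110 CPM in control RPF and 110, 110 and 102 CPM in shElp3 RPF. Its RNA was at 56.2, 37.8 and 41.8 CPM and at 31.3, 46.3 and 29.5 CPM. The groups overlapped in both fractions. Xaf1, a pro-apoptotic partner of XIAP, was at 12.6, 10.0 and 11.3 CPM in control RPF and 12.3, 15.3 and 11.2 CPM in shElp3 RPF. Sp100, a nuclear body protein, had log2 changes of -0.56 in RNA and -0.02 in RPF. Ifi44 had 1 and 2 reads in RNA and 0 in every RPF library.

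**Figure D4:**
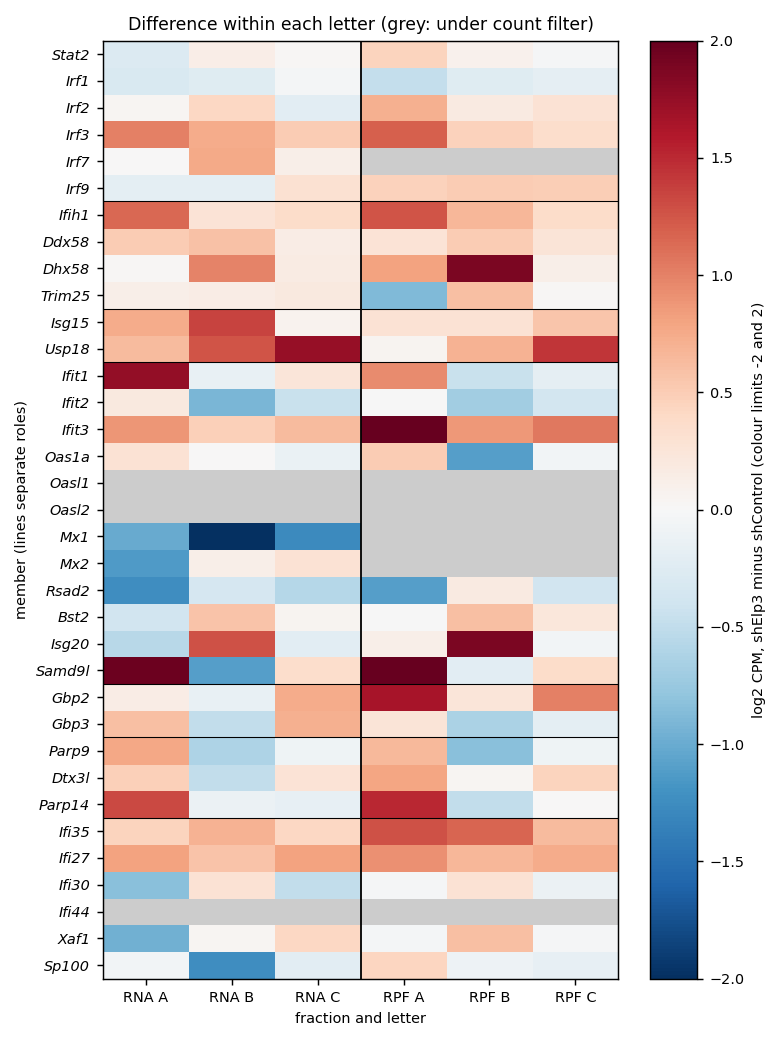
Difference in log2 CPM between the shElp3 and shControl library of the same letter (colour, limits -2 and 2, where darker cells may lie beyond them) for each member (rows, grouped by role) in RNA and RPF (columns). Irf3, Ifi35 and Ifi27 are among the members above 0 in all 6 columns, and Samd9l ranges from -1.11 to 2.95.

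The ratio of footprints to RNA (translational efficiency) was tested as a fraction-by-shRNA interaction in 1 model of the 12 libraries. Of 29 members 0 were called, beside 0% of all 11238 genes. At an unadjusted edgeR p under 0.05 there were 0 members, beside 0.552% of all genes. With so few genes under it in the whole table, the 0 says little about the members. DESeq2 and the fits with a letter or culture block also called 0 members, beside 0 of all genes. For Ifi35 the log2 ratio of RPF to RNA CPM was -0.81, 0.44 and 0.57 in control cultures and 0.01, 0.90 and 0.79 in shElp3 cultures. It was higher in the shElp3 culture of each letter, by 0.82, 0.46 and 0.22, but letter A was low in both groups. The fitted change was 0.48 (95% interval -0.66 to 1.63) and, with the letter as a block, 0.45 (-0.08 to 0.99). For Ifi27 the fitted change was -0.02 (-0.66 to 0.63), and the footprint and RNA log2 changes, 0.77 and 0.74, were close. For Irf3 it was -0.17 (-0.82 to 0.48), for Rsad2 0.22 (-0.70 to 1.14) and for Usp18 -0.58 (-1.84 to 0.68). These intervals do not show that the ratio stayed the same, since their upper bounds reach 0.63 for Ifi27, 1.14 for Rsad2 and 1.63 for Ifi35 on the log2 scale. Over the 29 members the median change of the ratio was 0.10, and over all genes -0.03.

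Members with and without an ISRE core in the promoter window were set side by side. In RNA the 12 with a match had a median log2 change of 0.32 (10 above 0) and the 13 tested without one had -0.00 (6 above 0). In RPF the medians were 0.30 (8 of 12 above 0) and 0.29 (8 of 12). In the fits without a block that gave these medians, Ifi35 in RPF, which has no ISRE core, was the 1 call among these members.

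The rest of the pathway was read from a list of 51 genes: ligands, receptors and kinases, sensors and adaptors, and regulators. Of 14 interferon ligand genes, 10 had 0 reads in all 12 libraries, which allows up to 0.182 to 0.394 CPM per library (3 reads, counting error only). The others, Ifna13, Ifng, Ifnk and Ifne, named here after their values were seen, had 4 reads or fewer summed over all libraries. All 9 receptor and kinase genes were tested in both fractions, and 0 were called with or without the block in either, with log2 changes of -0.28 to 0.62 in RNA and -0.27 to 0.34 in RPF. Over the list, edgeR called 0 of 34 in RNA without a block. DESeq2 called 2 higher and 1 lower in RNA, beside 1.88% and 3.43% of all genes. In RPF it called 1 of 33 higher and 1 lower, beside 4.65% and 6.88%. With the letter as a block, edgeR called 2 of 34 higher in RNA, beside 5.46% of all genes, and 1 lower, beside 6.75%. Among these, Nlrc5, a transactivator of MHC class I genes, rose, and Mb21d1 (cGAS), the cytosolic DNA sensor, fell.

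Mb21d1 RNA was at 10.4 ± 1.62 CPM in control and 4.51 ± 0.17 CPM in shElp3 cultures (SD, n = 3), without overlap (log2 change with the block -1.19, SE 0.26, edgeR adjusted p 0.0084). Its footprints were at 9.10, 10.2 and 7.93 CPM and at 3.51, 4.64 and 4.93 CPM (-1.05, SE 0.24, edgeR adjusted p 0.049). They were the 1 edgeR call of 33 in RPF without a block, beside 3.06% of all genes called lower. With the block the RPF value missed the threshold (edgeR adjusted p 0.070). Nlrc5 RNA was at 4.17, 4.12 and 4.52 CPM in control and 9.84, 10.6 and 8.91 CPM in shElp3 cultures (log2 change with the block 1.19, SE 0.27, edgeR adjusted p 0.0094). Its groups do not overlap in RNA or in RPF. Of another 46 interferon-stimulated genes, 45 were in the table and 30 were tested in RNA. Without a block edgeR called none of them in RNA or RPF. At an unadjusted edgeR p under 0.05 there were 1 of 30 in RNA, beside 12.4% of all genes, and 4 of 28 in RPF, beside 23.1%. DESeq2 called 0 in RNA and 2 in RPF, both higher, beside 4.65% of all genes called higher. With the block 1 was called higher in RNA, beside 5.46% of all genes. It was Trim14, a tripartite motif protein, at 1.04 (SE 0.23, edgeR adjusted p 0.0089). The medians over the 34 pathway genes and the 30 others tested in RNA were 0.08 and 0.05, and over the 33 and 28 tested in RPF 0.07 and 0.09, beside 0.35 for the 29 members.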

How the data were processed

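Total RNA and RPF of 6 cultures were prepared with the TruSeq Ribo Profile kit, per the labels' protocols. The deposited table holds raw whole-number read counts per gene symbol. The submitters' processing notes list TopHat2 2.1.1, Bowtie, HTSeq and bcl2fastq and the build mm10. Not given in the sources used here are the annotation, the strand setting and whether footprints were counted over coding sequence alone. Groups came from the labels. Nothing there says that the cultures were separate transductions, so p-values measure only the spread between these samples, which may be technical. No library pair of a group agreed within sampling noise (chi-square per degree of freedom 8.25 or more).

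Genes were kept with filterByExpr (minimum count 10), scaled by TMM within a fraction and tested with edgeR 4.0.16 (quasi-likelihood, R 4.3.3), without a block, over the 6 libraries of a fraction or all 12 for the ratio. P-values were adjusted over all genes tested. The SE is the log2 fold change divided by the root of F. The code was tested on simulated data. Alternatives were DESeq2 1.42.0, RLE factors, other count filters, letter and culture blocks, letters B and C only, and leaving out each library.

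Whether letters pair samples was checked by the correlation, across genes, of same-letter deviations from the group means. It was 0.807, 0.423 and 0.582 in RNA and 0.769, 0.466 and 0.492 for the ratio, over 0.1 in every pair, so blocked values stand beside those results where they change a call. Across letters, B and C correlated as highly (0.688 and 0.579 in RNA, 0.519 and 0.587 for the ratio), so the values separate A from B and C but not B from C. In RPF it was 0.328, -0.107 and 0.215.

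The members, lists and tests were chosen with earlier results of these data known. All members could be named. Members called with or without the block got full values, and others got library values for up to 2 per role by mean CPM. Genes of the other lists could be named if called. A result that this rule picks is not reported here.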

Additional observations from a re-analysis of the deposited data

How the results depend on the processing

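In RNA, 0 members were called without a block, 1 with DESeq2, 5 with the letter as a replicate block, 6 with letters B and C only, and 0 to 1 when a library was left out (Usp18, without control A). Without control A, 1 of 32 members stood beside 540 of 12404 genes called in RNA. Without any 1 of the other RNA libraries, 0 genes were called in the whole table, so the 0 members there is no result about them. In RPF, 2 members were called, 5 with letters B and C only and 0 to 9 when a library was left out, with the 9 reached without control A. The replicate block changed no RPF member's call. The ratio gave 0 called members in every fit run, beside 0 to 2 genes called in the whole table. The fitted ratio of Ifi27, close to 0, changed sign with DESeq2 (0.0087) and RLE factors (0.0096) and ran from -0.25 to 0.27 when a culture was left out. That of Ifi35 ran from -0.078 (without control A) to 0.92. The median RNA log2 fold change of the members ranged from 0.02 to 0.23 when a library was left out. Leaving out a library also removes residual degrees of freedom. Members with few reads, such as Mx1, Irf7 and Usp18, are limited by depth.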
